A study of Homo sapiens with 6 samples.

Results

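Deoxynucleotides, the building blocks of DNA, are supplied by a small set of enzymes, and 9 of their genes were followed here in Hep3B cells, an established human hepatocellular carcinoma line. They are RRM1, RRM2, RRM2B, TYMS, TK1, DUT, DTYMK, DCK and SAMHD1, taken by symbol from the platform annotation, which assigned 14 probes to them among 20045 genes with a named probe. Per the labels, 3 samples received the solvent DMSO for 24 h and 3 received sorafenib, a drug against RAF and receptor tyrosine kinases, for 24 h at a stated 3 mM. The unit of that dose could not be checked here and may be a slip, since cell culture work with sorafenib commonly uses micromolar doses. All 6 samples are of the single line Hep3B, and nothing in the labels says that the replicates were grown as separate cultures. The p-values therefore cover only the spread among these arrays, possibly a technical one. The comparison is of sorafenib with DMSO. Whether the groups also differed in handling could not be checked here, as no slide or scan date was used.

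Ribonucleotide reductase makes deoxyribonucleotides from ribonucleotides. Its large subunit, RRM1, pairs with the small subunit RRM2 in dividing cells or with RRM2B, a small subunit known as a p53 target and as a source of deoxynucleotides outside S phase. The thymidine branch starts when DUT turns dUTP into dUMP, TYMS methylates dUMP to dTMP, and DTYMK phosphorylates it further. The kinases TK1 and DCK recover thymidine and deoxycytidine, and SAMHD1 breaks deoxynucleotides down. RRM2, TYMS and TK1 are known for expression that peaks around S phase, and Hep3B is known to lack p53.

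Each array detected 34.3% to 36.7% of its probes, at a detection p under 0.01. Arrays of the same group had pairwise correlations of 0.992 to 0.997 over the tested probes, and arrays of different groups 0.977 to 0.981. All 10 hepatocyte and Hep3B markers were detected on every array, with mean log2 intensities of 10.4 to 15.5. Of 9 markers of blood, endothelial, mesenchymal and muscle cells with a named probe, 8 were below detection on all 6 arrays. The exception was CD68, a lysosomal protein of macrophages that other cells also make. The 15 probes of these markers summed to raw intensities of 2233 to 2523 in control and 2235 to 2641 in sorafenib samples.

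Of the 9 genes, 6 fell with sorafenib (RRM2, TK1, DUT, TYMS, RRM1 and DCK), none rose, 2 did not pass the threshold (DTYMK and RRM2B) and SAMHD1 was not detected. In the same fit, 17.0% of 10598 genes fell (limma, adjusted p under 0.05) and 19.7% rose, so that 53.6% of called genes were higher. Centring arrays on the median of all probes made that share 69.8%, and the same number of members passed. The tested members had a median log2 difference of -0.53, against a median for all genes of -0.00054. Fewer cells in S phase and less RNA per cell cannot be told apart in these bulk samples.

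**Figure D1:**
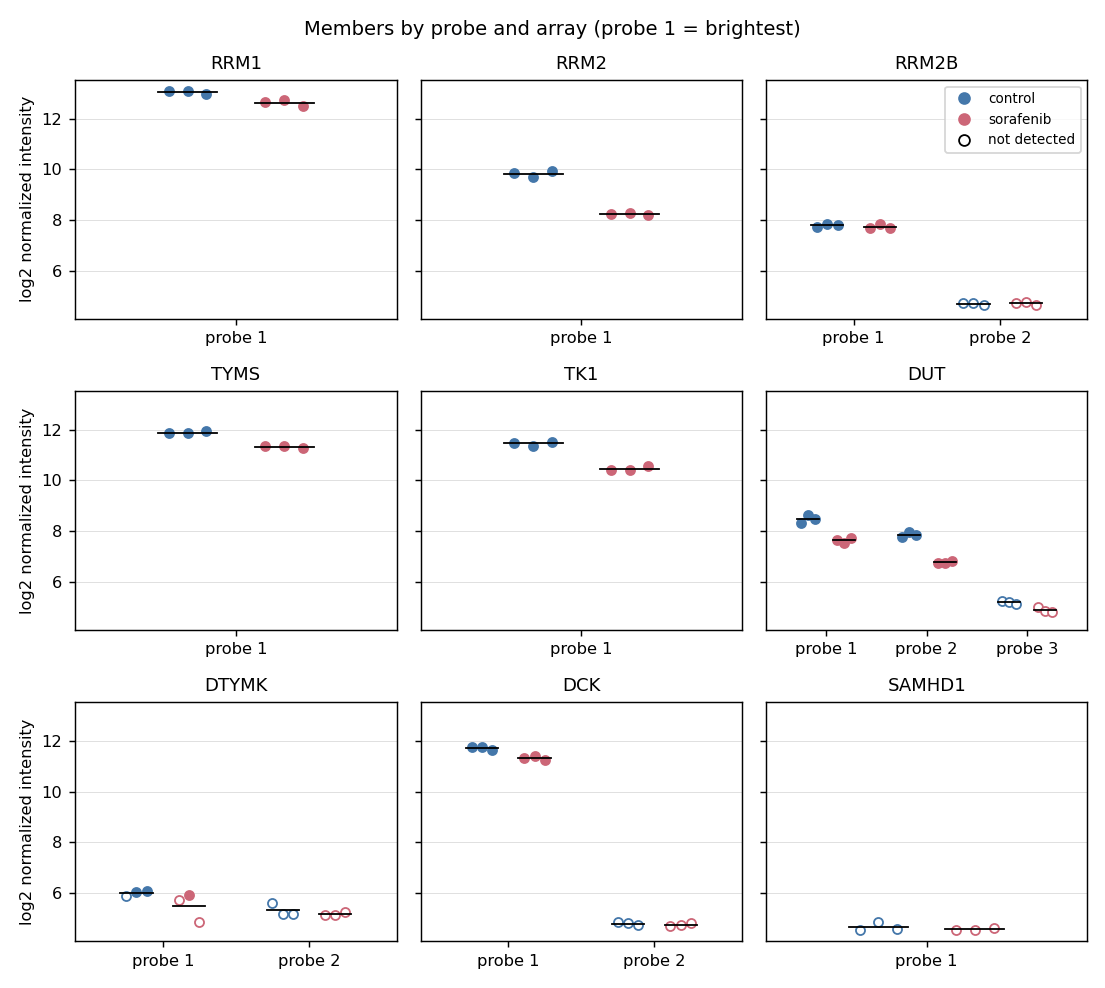
Normalized log2 intensity (y axis) of every probe of the 9 genes on each array, with control samples in blue, sorafenib samples in red, group means as lines and arrays with a detection p of 0.01 or more as open circles. RRM2 moved from a mean of 9.82 to 8.23 with no overlap, RRM2B overlapped between groups, and SAMHD1 was open on every array.

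RRM2, the small subunit made in dividing cells, had raw intensities of 899.8, 883 and 1062 in the control samples and 447, 368 and 378 in the sorafenib samples. Every sorafenib sample lay below every control sample. After normalization its level was 9.82 ± 0.10 (log2, SD, n = 3) in control and 8.23 ± 0.02 in sorafenib. The fall was 3.01-fold (95% interval 2.67 to 3.40, log2 -1.59 ± 0.07, SE, limma adjusted p = 5.84e-05). RRM2 stood at position 25 from the lowest difference among 10598 genes. The mean raw intensities, which include background, had a ratio of 2.39.

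RRM1, the large catalytic subunit, had raw intensities of 8265, 8861 and 8586 in control and 7289, 6189 and 5898 in sorafenib samples. These groups did not overlap either. Its normalized level went from 13.06 ± 0.08 to 12.63 ± 0.13 (log2, SD, n = 3), a fall of 1.35-fold (95% interval 1.17 to 1.56, log2 -0.43 ± 0.09, limma adjusted p = 0.00957). RRM1 stood at position 954 from the lowest difference among 10598 genes.

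RRM2B, the alternative small subunit, had raw intensities of 265, 295 and 304 in control and 330.4, 296 and 281 in sorafenib samples, so the groups overlapped. Its log2 difference was -0.061 ± 0.08 (95% interval -0.25 to 0.12, limma adjusted p = 0.591), and 0.053 with arrays centred on the median of all probes. A second RRM2B probe was below detection on all 6 arrays (lowest detection p 0.457) and was not tested.

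The responses of the subunits were set against each other within arrays, which leaves out only a factor equal for both probes of an array. Background correction and normalization can act unequally on probes of unlike brightness. With arrays centred on the median of all probes, the change in RRM2 minus RRM1 given below was -1.03. The log2 difference between RRM2 and RRM1 was -3.24 ± 0.17 (SD, n = 3) in control and -4.39 ± 0.11 in sorafenib samples, a change of -1.16. The log2 difference between RRM2 and RRM2B changed by -1.53, from 2.04 ± 0.14 to 0.51 ± 0.08. In both pairs all sorafenib samples lay below all control samples. The exact two-sided permutation test gave p = 0.1 for each pair (0.1 adjusted over the 3 pairs compared), the smallest value that 3 against 3 samples allow, so no pair could pass the threshold. Without background correction, as in the deposited log2 values, these changes were -0.945 and -1.33.

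**Figure D2:**
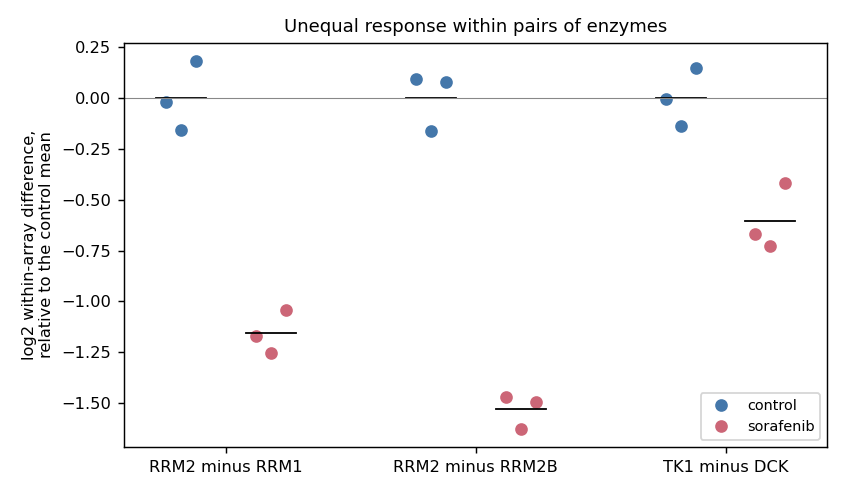
Within-array log2 difference between paired enzymes (y axis, relative to the control mean) for each control (blue) and sorafenib (red) array, with group means as lines. The sorafenib means lie at -1.16 for RRM2 minus RRM1, -1.53 for RRM2 minus RRM2B and -0.61 for TK1 minus DCK, with no overlap between groups in any of the 3 pairs.

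In the thymidine branch, DUT, the dUTPase, was measured by a pair of tested probes that fell together. The brighter one had raw intensities of 359.9, 455 and 439 in control and 327, 252 and 289 in sorafenib samples. It fell 1.79-fold (95% interval 1.53 to 2.11, log2 -0.84 ± 0.10, SE, limma adjusted p = 0.00107). The other went from 268, 316 and 310.2 to 213, 178 and 194. Its fall was 2.13-fold (log2 -1.09 ± 0.08, adjusted p = 0.00019), or -0.72 in the deposited log2 values. On both probes the groups were separate, and the remaining DUT probe was below detection on all 6 arrays.

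TYMS, thymidylate synthase, had raw intensities of 3495, 3761 and 4145 in control and 3109.8, 2455 and 2582 in sorafenib samples. Its normalized values were tight, at 11.89 ± 0.04 (log2, SD, n = 3) and 11.33 ± 0.05. TYMS fell 1.48-fold (95% interval 1.33 to 1.64, log2 -0.56 ± 0.06, SE, limma adjusted p = 0.00102).

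DTYMK, thymidylate kinase, lay at the detection limit. Its brighter probe was detected on 2 of 3 control and 1 of 3 sorafenib arrays, with raw intensities of 133, 142 and 148 against 143, 133 and 100.3. The log2 difference was -0.51 ± 0.25 (95% interval -1.10 to 0.09, limma adjusted p = 0.165). Sorafenib replicate 3 decided its size, and without that array it was -0.19. In the deposited log2 values it was -0.231. The other DTYMK probe was below detection on all 6 arrays.

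Of the salvage kinases, TK1, thymidine kinase of the cytosol, had raw intensities of 2705, 2633 and 3131 in control and 1677, 1356 and 1604 in sorafenib samples. It fell 2.00-fold (95% interval 1.76 to 2.28, log2 -1.001 ± 0.08, SE, limma adjusted p = 0.000258). With each gene taken by its brightest probe, RRM2 and TK1 fell at least 2-fold, as did 1.16% of all genes tested, and the dimmer DUT probe was past that limit too. TK1 was at the limit, with -0.96 in the deposited log2 values. DCK, deoxycytidine kinase, had raw intensities of 3222, 3448 and 3368 in control and 3036, 2546 and 2521 in sorafenib samples. DCK fell 1.32-fold (95% interval 1.16 to 1.49, log2 -0.40 ± 0.08, adjusted p = 0.00794), and its other probe was below detection on all 6 arrays. The log2 difference between TK1 and DCK within arrays changed by -0.61, from -0.25 ± 0.14 to -0.86 ± 0.16 (SD, n = 3), again with no overlap (exact permutation p = 0.1, the smallest possible).

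SAMHD1, the enzyme of deoxynucleotide breakdown, stayed below detection on all 6 arrays. Its raw intensities were 78.6, 97.2 and 83.7 in control and 82.1, 75.8 and 85.6 in sorafenib samples, below the 127 to 150.3 at which probes were first detected on these arrays. No fold is given for it. Of the 14 probes, 9 were tested, and on 7 of these all sorafenib values lay below all control values; 24.5% of 16909 tested probes did the same.

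**Figure D3:**
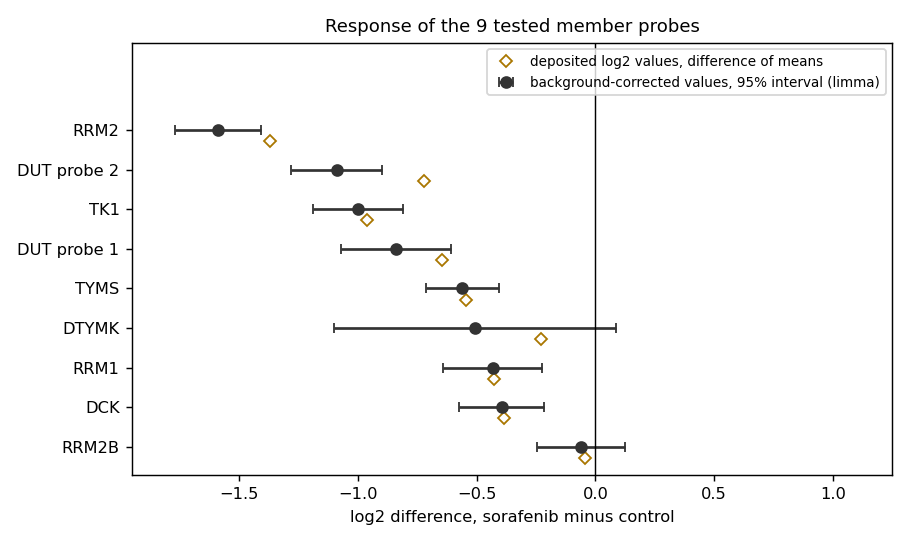
Log2 difference between sorafenib and control (x axis) for each of the 9 tested probes, with limma's 95% intervals on background-corrected values (circles) and the difference of group means in the deposited log2 values (diamonds). RRM2 is farthest from 0 at -1.59 (-1.37 deposited), while the intervals of DTYMK and RRM2B include 0.

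Promoters of the 6 genes that fell are shown so that their proximal sequences can be compared. RefSeq entries on GRCh38.p14 were matched for 8 of the 9 genes, all except RRM2B. Each sequence is the 250 bases before the most downstream listed start, 5′ to 3′ in the direction of the gene. Capitals mark matches on either strand to TTTNNCGC (the E2F type), CCAAT (the box bound by NF-Y) and GGGCGG (the SP1 type). A reverse-strand match reads as its reverse complement, such as ATTGG for CCAAT, and no matches overlapped in these 6 windows.
RRM2, chr2:10122489-10122738, plus strand: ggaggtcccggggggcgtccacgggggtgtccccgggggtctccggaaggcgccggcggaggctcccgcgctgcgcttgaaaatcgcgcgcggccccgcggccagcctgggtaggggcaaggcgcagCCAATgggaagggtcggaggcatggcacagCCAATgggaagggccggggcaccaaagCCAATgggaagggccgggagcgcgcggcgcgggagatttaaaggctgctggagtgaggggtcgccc
TK1, chr17:78187053-78187302, minus strand: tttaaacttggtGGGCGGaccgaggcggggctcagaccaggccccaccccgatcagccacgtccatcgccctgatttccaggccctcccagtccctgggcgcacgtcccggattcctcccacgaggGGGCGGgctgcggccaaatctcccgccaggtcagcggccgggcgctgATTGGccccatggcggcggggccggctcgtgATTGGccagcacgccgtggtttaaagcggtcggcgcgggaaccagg
DUT, chr15:48331947-48332196, plus strand: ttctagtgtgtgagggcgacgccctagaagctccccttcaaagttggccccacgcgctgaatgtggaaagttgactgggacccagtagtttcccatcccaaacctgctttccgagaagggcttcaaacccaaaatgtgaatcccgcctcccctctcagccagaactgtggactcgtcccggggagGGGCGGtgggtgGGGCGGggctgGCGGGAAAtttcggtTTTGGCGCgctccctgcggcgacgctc
TYMS, chr18:657403-657652, plus strand: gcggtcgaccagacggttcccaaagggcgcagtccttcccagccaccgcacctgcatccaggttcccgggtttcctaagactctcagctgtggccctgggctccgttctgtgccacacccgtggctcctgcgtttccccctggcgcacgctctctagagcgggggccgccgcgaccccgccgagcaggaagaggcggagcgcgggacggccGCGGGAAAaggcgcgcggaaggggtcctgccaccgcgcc
RRM1, chr11:4094435-4094684, plus strand: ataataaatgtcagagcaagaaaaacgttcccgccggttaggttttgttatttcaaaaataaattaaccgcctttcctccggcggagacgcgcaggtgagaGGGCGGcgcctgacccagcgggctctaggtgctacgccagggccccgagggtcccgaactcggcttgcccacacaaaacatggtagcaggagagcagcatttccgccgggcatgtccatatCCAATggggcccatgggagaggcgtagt
DCK, chr4:70993399-70993648, plus strand: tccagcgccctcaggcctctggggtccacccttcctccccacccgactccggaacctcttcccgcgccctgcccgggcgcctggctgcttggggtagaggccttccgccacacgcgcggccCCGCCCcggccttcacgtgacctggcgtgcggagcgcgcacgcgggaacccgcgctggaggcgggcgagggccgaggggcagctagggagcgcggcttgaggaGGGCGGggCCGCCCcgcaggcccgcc

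The RRM2 window held 3 CCAAT matches, at 123, 93 and 66 bases before the start, and 2.93% of 35116 promoter windows of this length held at least 3. TK1 held 2 CCAAT matches, both on the reverse strand, at 77 and 46 bases, beside 2 GGGCGG matches. CCAAT occurred at least once in 32.0% of windows and at least 2 times in 9.53%. DUT had 2 TTTNNCGC matches, at 42 and 27 bases, where 0.413% of windows held at least 2. TYMS had 1 at 39 bases, and 5.92% of windows held at least 1. The windows shown for RRM2, TK1, RRM1 and DCK held no TTTNNCGC match. RRM1 held 1 CCAAT and 1 GGGCGG match, and DCK held 3 GGGCGG matches and neither other motif. Outside the 6 genes shown, DTYMK, which did not pass, held 2 CCAAT matches and 1 GGGCGG match. SAMHD1, which was not detected, held 2 CCAAT matches, so CCAAT matches were not particular to the genes that fell. GGGCGG occurred at least once in 42.6% of windows, at least 2 times in 24.3% and at least 3 times in 13.9%. The other listed starts differed. RRM2's upstream start had 1 CCAAT match, TK1's had none, and none of the other 3 DUT starts had a TTTNNCGC match. These matches describe letters and do not show binding.

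Around these enzymes, 8 lists of related genes held 81 tested genes, of which 13 fell, 15 rose and 53 did not pass, with a median log2 difference of 0.0013. Over all 10598 genes, 17.0% fell and 19.7% rose, and no list was tested as a group. In de novo purine synthesis, 1 of 13 genes fell and 2 rose. ADSS1, an adenylosuccinate synthase, rose 1.71-fold (log2 0.78 ± 0.12, SE, and 0.501 in the deposited log2 values), and ADSL, the lyase of the next step, rose 1.29-fold. PRPS2, which makes the ribose donor, fell 1.38-fold, and its other probe fell by 0.49. In pyrimidine synthesis 2 of 10 genes fell and 1 rose, by small amounts. The nucleoside diphosphate kinases NME2 and NME3 differed by -0.33 and 0.28, and the CTP synthase CTPS1 by -0.28. The limma call of NME2 was lost without control replicate 2 (adjusted p = 0.136) or without sorafenib replicate 1, 2 or 3 (0.0652, 0.471 and 0.0567), and its difference was -0.163 without sorafenib replicate 2. The call of NME3 was lost without control replicate 1 or 2 (0.0592 and 0.0539). The call of CTPS1 was lost without control replicate 1 or 3 (0.0838 and 0.0712) or without sorafenib replicate 1, 2 or 3 (0.053, 0.0758 and 0.0609). NME2 is similar in sequence to NME1, and its call is uncertain. The brighter entries NME1 and NME1-NME2 differed by -0.085 and 0.064, neither past the threshold (limma adjusted p = 0.342 and 0.605). CAD, which starts the pathway, differed by 0.18 without passing (adjusted p = 0.0715).

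**Figure D4:**
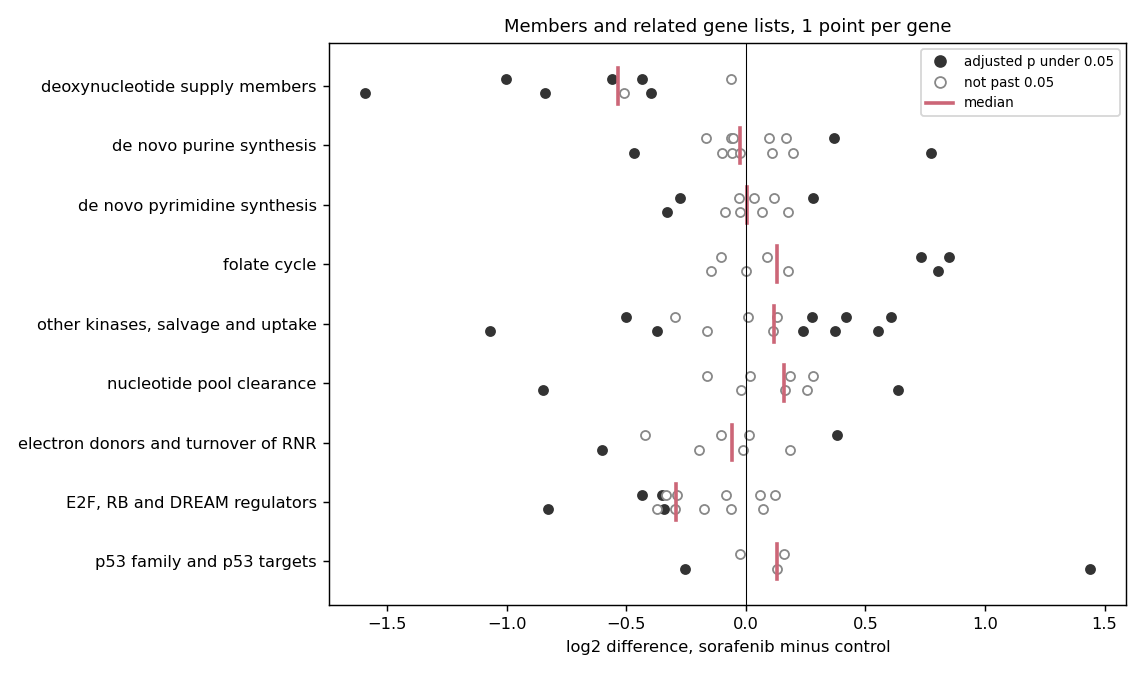
Log2 difference between sorafenib and control (x axis) for each tested gene of the members and of the 8 related lists, filled where limma's adjusted p was under 0.05, with the list median as a red bar. The members' median is -0.53, and the list medians range from -0.29 for the E2F, RB and DREAM regulators to 0.16 for pool clearance.

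The folate cycle supplies the methyl group that TYMS uses, and 3 of its 8 tested genes rose while none fell (19.7% and 17.0% of all genes). All 3 encode mitochondrial enzymes. MTHFD2 went from 10.82 ± 0.11 to 11.67 ± 0.06 (log2, SD, n = 3), a rise of 1.80-fold (log2 0.85 ± 0.08, SE, limma adjusted p = 0.000479). SHMT2 rose 1.74-fold and MTHFD1L 1.66-fold. Their cytosolic counterparts did not pass, with SHMT1 at 0.09 and MTHFD1 at -0.10. Whether the mitochondrial and cytosolic genes differed in response was not tested.

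Salvage and uptake genes went both ways, 3 of 14 lower and 6 higher, where 17.0% of all genes fell and 19.7% rose. PNP, the purine nucleoside phosphorylase, fell 2.10-fold, from 11.12 ± 0.05 to 10.04 ± 0.08 (log2, SD, n = 3, limma adjusted p = 0.000134). SLC29A2, an equilibrative nucleoside transporter, fell 1.42-fold. The pyrimidine phosphorylases rose, TYMP (which splits thymidine) 1.53-fold and UPP1 (which splits uridine) 1.47-fold. ADA, adenosine deaminase, rose 1.34-fold. TK2, the mitochondrial thymidine kinase, rose 1.30-fold (log2 0.37, and 0.206 in the deposited log2 values), a call lost without control replicate 1 or 2 (adjusted p = 0.0737 and 0.0637) or sorafenib replicate 1 or 3 (0.0727 and 0.0596). DGUOK, the mitochondrial kinase of purine deoxynucleosides, differed by 0.0087 without passing.

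In pool clearance, NUDT1, which hydrolyses oxidized purine nucleotides, fell 1.80-fold (log2 -0.85 ± 0.08, SE, limma adjusted p = 0.000405), while its dimmer probe differed by -0.40 without passing (adjusted p = 0.072). DCTPP1, a dCTP pyrophosphatase, rose 1.56-fold on one probe and by 0.42 on the other. These were 1 lower and 1 higher of 9 genes tested, where 17.0% of all genes fell and 19.7% rose. Among 8 electron donors and turnover factors of the reductase, CCNF, the cyclin that marks RRM2 for degradation, fell 1.52-fold (limma adjusted p = 0.000912) and TXNRD1, thioredoxin reductase, rose 1.30-fold. Thioredoxin itself, TXN, differed by 0.015 without passing.

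Of 14 E2F, RB and DREAM regulators, factors known to control S phase genes including several of these enzymes, 4 fell and none rose, where 17.0% of all genes fell and 19.7% rose. The list's median log2 difference was -0.29, beside -0.00054 for all genes. E2F1, E2F8 and RB1 were also listed and had named probes, but did not pass the detection filter and were not tested. E2F7, a repressor of the family, fell 1.77-fold (log2 -0.82 ± 0.09, SE, limma adjusted p = 0.000766). TFDP1, the partner of E2F factors in DNA binding, fell 1.35-fold and E2F2 1.28-fold. FOXM1 fell 1.27-fold on its brighter probe, a call lost without any single array other than control replicate 2 (adjusted p of 0.07 to 0.133), and by 0.50 on its other probe (adjusted p = 0.00227).

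The p53 list, included since RRM2B is known as a p53 target, had 1 lower and 1 higher of 5 tested genes. Among all genes, 17.0% fell and 19.7% rose. SESN2, known to be induced through p53 and also through ATF4, rose 2.71-fold (log2 1.44 ± 0.09, SE, limma adjusted p = 0.000113). TIGAR fell 1.19-fold, a call lost without control replicate 1 or 3 (adjusted p = 0.0903 and 0.0623) or sorafenib replicate 2 or 3 (0.0821 and 0.0559). CDKN1A differed by -0.023 and SESN1 by 0.13, neither past the threshold. With arrays centred on the median of all probes, NME2, CTPS1, E2F2, FOXM1 and TIGAR lost their calls (adjusted p of 0.114 to 0.363). Without the filter on dim probes, NME2, NME3, CTPS1, TK2, FOXM1 and TIGAR lost theirs (0.0564 to 0.114).

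The genes whose log2 profile over the 6 arrays lay closest to that of RRM2, each taken relative to its own control mean, were sought among 10590 genes. The 5 nearest were CGA, UBASH3B, IER3, RGCC and GPX2, at Euclidean distances of 0.149 to 0.279 log2 units. Their log2 differences were -1.56 for CGA, -1.47 for UBASH3B, -1.50 for IER3, -1.72 for RGCC and -1.70 for GPX2, beside -1.59 for RRM2. None of them was in a list used here. The measure of likeness includes the size of the difference between the 2 groups.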

How the data were processed

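Hep3B cells were profiled on 6 Illumina expression BeadChip arrays, 3 labelled control and 3 labelled sorafenib. Per the file headers, the authors deposited, for 47321 probes on each array, a non-normalized intensity with its detection p-value. A table of log2 values was also deposited by the authors, with no method stated. Log2 of the raw intensities, quantile-normalized over the 6 arrays, gave those deposited log2 values to within 5e-07, so they carry no background correction, which brings the differences of dim probes closer to 0. No slide or scan date was used here.

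Intensities were background-corrected and quantile-normalized with neqc (offset 16, background estimated from the detection p-values) in limma 3.58.1 under R 4.3.3. Probes with a detection p under 0.01 on at least 3 arrays were tested (16909). A two-sided limma fit (lmFit, eBayes) compared sorafenib with control on every tested probe. Benjamini-Hochberg adjustment ran over all of these, with 0.05 as the threshold. The error given with a log2 difference is limma's standard error (SE). The test was also run on simulated data with independent normal noise. Such data cannot show how the test behaves if the replicates are technical or correlated. The brightest tested probe stood for its gene, which gave 10598 genes. Differences in response between enzymes were tested with an exact permutation test over arrays. Genes were named through GEO's platform annotation (30112 probes with 1 symbol), and promoters came from RefSeq on GRCh38.p14.

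The members and the gene lists were chosen with earlier results of these data known. From each list, up to 6 genes past the threshold with the largest differences were named, together with partners of a member by their values. The replicate numbers did not meet the rule for paired samples, since deviations of same-numbered samples from their group means correlated at 0.089, 0.1 and 0.25. Alternatives covered the background correction, the normalization, the deposited log2 values, the filter on dim probes, a replicate block, the variance model, array weights, the choice of probe and leaving out each array. The number of arrays limits the precision.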

Additional observations from a re-analysis of the deposited data

How the results depend on the processing

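The count of 6 members past the threshold was the same under all 19 alternatives, those without 1 array included, and no member lost or gained its call. Of the other genes, those in the 8 related lists, 28 passed the threshold, and 21 to 36 under the alternatives (22 to 24 without 1 array). The RRM2B difference, which did not pass, changed sign to 0.0529 with arrays centred on the median of all probes (adjusted p = 0.786). The change in RRM2 minus RRM1 was -0.945 without background correction and in the deposited log2 values, and -0.982 with normexp (offset 50), against -1.16. For RRM2 minus RRM2B these were -1.33, -1.33 and -1.37, against -1.53. Without 1 array the 3 pairs ranged from -1.24 to -1.07, -1.61 to -1.48, and -0.698 to -0.532 (TK1 minus DCK). The variance model and array weights do not enter these pair values. Among the other named genes, 437 values kept their call and 38 lost it; besides losses without single arrays, centring on all probes ended the calls of NME2, CTPS1, E2F2, FOXM1 and TIGAR, and testing all probes those of NME2, NME3, CTPS1, TK2, FOXM1 and TIGAR. NME2 also lost its call with the median over its probes (adjusted p = 0.0637) and FOXM1 with a detection p under 0.05 (0.0644). With the replicate block, 6 members and 29 other genes passed, pair changes were -1.16, -1.53 and -0.605, FOXM1 lost its call (adjusted p = 0.0738) and 3627 genes passed in place of 3885; not every sample correlated best with its own number. Dim probes limit DTYMK and SAMHD1, whose levels lie at or below detection.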

Other observations

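ADK, adenosine kinase, chosen after its values were seen, had 3 tested probes that differed in size: the brightest at a log2 difference of 0.28 (limma adjusted p = 0.0239) and the others at 0.90 (adjusted p = 0.00153) and 0.04 (adjusted p = 0.806). Which transcripts these probes detect was not tested.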
